A study of Mus musculus with 4 samples.

Results

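REST, the RE-1 silencing transcription factor, and 8 genes of the corepressor complexes that it recruits were followed in RNA-seq of whole mouse pancreas at E18.5. The 9 genes were taken by symbol from a count table of 24391 genes and are *Rest*, the CoREST scaffolds *Rcor1*, *Rcor2* and *Rcor3*, the SIN3 scaffold *Sin3a*, the histone deacetylases *Hdac1* and *Hdac2*, the histone demethylase *Kdm1a* (LSD1) and the histone methyltransferase *Ehmt2* (G9a). All 9 were present in the table and all 9 passed the filter on low counts, which 14550 genes of the table did in all. The table holds 4 libraries, 2 of controls and 2 of *Rest* pKO, on a strain background that the labels call mixed with C57BL/6. By the labels the *Rest* pKO embryos were Pdx1Cre RESTLoxP/LoxP and the controls Pdx1Cre RESTwt, so that both groups carried the Cre transgene, although the study also names its control group Rest LSL. In *Rest* pKO embryos the *Pdx1* promoter drives Cre in the pancreatic epithelium, where it excises exon 4 of *Rest*, and the mesenchyme, vessels, nerves and blood cells of the organ keep the gene. *Xist* and Y-linked counts put 1 female and 1 male library in each group, so that the libraries of a group came from different embryos.

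REST binds the RE1 element, a long DNA motif near many neuronal and endocrine genes, and keeps those genes silent in cells where they are not used. It has a repressor domain at each end of the protein. The amino-terminal domain recruits SIN3 scaffolds, which carry HDAC1 and HDAC2, and the carboxy-terminal domain recruits CoREST scaffolds, which carry the same deacetylases together with LSD1, a demethylase of histone H3 lysine 4. G9a, which methylates histone H3 lysine 9, is recruited as well. Whether the RNA of these cofactors moves when REST is lost in the pancreatic epithelium is the question that the 2 groups allow here, at the level of the whole organ. In such bulk libraries fewer cells of a type and less RNA per cell cannot be told apart.

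*Rest* lies on the forward strand of chromosome 5, from 77694516 to 77715457 in the mm9 build. Its transcript with the longest coding sequence has 4 exons and 7004 bases. Exon 4, the exon that is floxed, runs from 77709728 to 77715457 and holds 81.8% of these bases and 70.2% of the 3246 coding bases, with the whole of the 3′ untranslated region. Exon 2 holds 27.2% of the coding bases and exon 3, at 84 bases, 2.59%. Where within or around exon 4 the distal loxP site stands is not given in the sources used here, and the deposited counts are summed over all exons.

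The oligonucleotides that the study used for *Rest* show which piece of the gene each assay reads. They were placed on the mm9 sequence by exact match. In the sequences, given 5′ to 3′, capitals mark bases of exon 4.
qPCR forward: cacctgcgagctggcgagaac
qPCR reverse: CACATTTAAATGGCTTCTCACctg
genotyping forward: cccttatgggtgcaagtgtt
genotyping reverse: ccggctctacttcagaccag
The forward qPCR primer lies in exon 2, on chr5:77697662-77697682. The reverse qPCR primer crosses the junction of exons 3 and 4, with 21 bases in exon 4 and 3 in exon 3, so that its product of 292 bases can form only from RNA that joins these exons. Both genotyping primers lie in intron 3, on chr5:77709304-77709323 and chr5:77709472-77709491. They span 188 bases of the wild-type sequence and end 236 bases before exon 4. A gene count, by contrast, takes reads from any exon, from deleted and undeleted cells together.

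**Figure D1:**
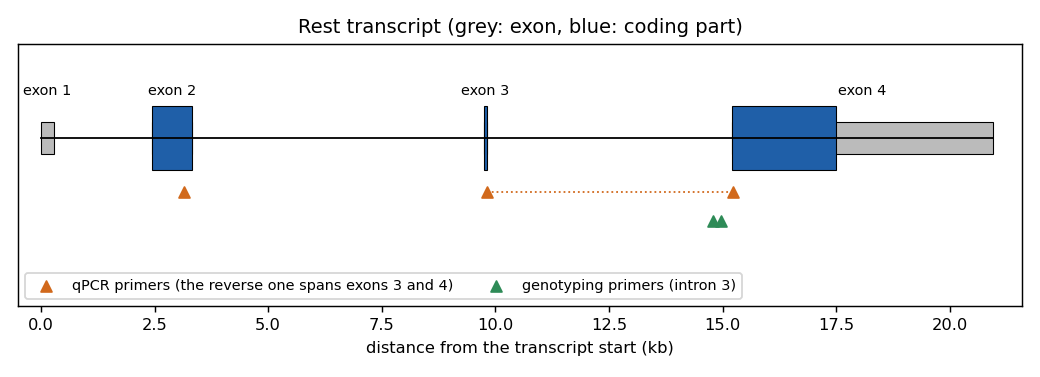
Exons of *Rest* to scale, as distance from the transcript start in kb, with the coding part in blue and the primers as triangles. The qPCR product spans exons 2 to 4, and the genotyping primers sit in intron 3, just before exon 4, which holds 81.8% of the exonic bases.

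*Rest* was counted 239 and 312 times in control replicates 1 and 2 and 262 and 201 times in *Rest* pKO replicates 1 and 2. After TMM normalization these are 14.2 and 15.7 CPM (counts scaled to a common library size) in the controls and 12.1 and 9.16 CPM in *Rest* pKO. The *Rest* pKO values were both under those of the controls, and the gap between the *Rest* pKO libraries was wider than that between the controls. The counting error of a single value is 5.66% to 7.05%, as the square root of the count, which covers sampling of reads only. The fold of *Rest* pKO over control was 0.711 with a 95% interval of 0.491 to 1.03 (edgeR's quasi-likelihood test, log2 fold change −0.49, standard error 0.23, adjusted p = 0.593 over 14550 genes). The interval thus runs from a reduction to 0.491 of the control level up to a slight excess. By the paper, REST protein was severely depleted in most epithelial cells of the embryonic pancreas, which RNA counts of the whole organ do not measure. Among all genes tested, 11.3% had a log2 fold change as low as that of *Rest* or lower.

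The *Rest* pKO libraries also differed from the controls in ways that run with exon length. Across 13434 genes with a known length, log2 fold changes had a Spearman's rho of −0.297 with exon length, given as a description across genes that share the 4 libraries. By library, the deviations from the gene means had a rho of 0.200 and 0.263 in the controls and of −0.0133 and −0.307 in *Rest* pKO replicates 1 and 2. *Rest* is long, with 7254 bases over all annotated exons, and 982 tested genes within 10% of this length had a median log2 fold change of −0.14. With the length trend of each library removed, an alternative added after seeing the data, the log2 fold change of *Rest* was −0.36 (standard error 0.22, edgeR adjusted p = 0.734). Without *Rest* pKO replicate 2 it was −0.30, and without *Rest* pKO replicate 1 it was −0.71.

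The summed levels of cell type markers also differed between libraries. For the 10 genes of proliferating cells the control sums were 553 and 632 CPM, against 524 and 488 CPM for the *Rest* pKO pair. These sums did not overlap, but abundant genes weigh most in them. With each gene weighed alike, the mean deviations from the gene means did overlap. They were −0.060 and 0.178 for control replicates 1 and 2, against −0.0079 and −0.110 for *Rest* pKO replicates 1 and 2. By gene, 4 of the 10 were lower without overlap and 6 overlapped. In log2 fold change 6 of 10 genes lay below 0, and *Cdk1*, *Aurkb*, *Mcm2* and *Pcna* above. *Mki67*, the most abundant, stood at 196 and 216 CPM in the controls and was lower in the *Rest* pKO pair, at 149 and 143 CPM. Mesenchyme genes, marking cells that keep *Rest*, summed to 8736 and 7834 CPM in the controls and 4670 and 7309 CPM in *Rest* pKO, with 7 of 10 below 0 in log2 fold change and their lowest level in *Rest* pKO replicate 1. Duct and bipotent progenitor genes summed to 1679 and 1446 CPM in the controls and 1715 and 1686 CPM in *Rest* pKO, with 5 of 10 on each side of 0. Leukocyte genes lay below 0 in 9 of 10, endothelial genes above 0 in 7 of 8 and acinar genes above 0 in 9 of 10. Nerves and blood cells also keep *Rest*, but the neuron and Schwann cell list is not confined to nerves. It holds *Snap25*, which the paper names as REST-bound in embryonic pancreas and as a gene of insulin secretion. Which cells the counts of this list come from was not tested. Neuron and Schwann cell genes were above 0 in 9 of 9 tested, with a median of 0.85, and summed to 26.0 and 22.6 CPM in the controls against 46.4 and 44.2 CPM in the *Rest* pKO pair. Erythroid genes were below 0 in 6 of 6 tested, with a median of −2.49, and summed to 36.5 and 156 CPM in the controls against 23.6 and 23.7 CPM in the *Rest* pKO pair. Endocrine genes, of a cell type known for low REST, were all above 0, 12 of 12, and summed to 3133 and 2117 CPM in the controls and 4667 and 6630 CPM in *Rest* pKO. A count of 0 in some library was found for 1 neuron and Schwann cell gene and 2 erythroid genes, and for no gene of the other lists. Their part in the level of *Rest* was not tested.

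None of the 9 genes was called higher or lower in *Rest* pKO at an adjusted p under 0.05, where edgeR called 4 of 14550 genes, or 0.0275%. At an unadjusted p under 0.05, 1 of the 9 was lower, *Rcor1*, beside 8.87% of all genes in either direction. By DESeq2, which called 0.716% of the genes to which it gave an adjusted p, and by edgeR with sex as a further term, which called 1.7%, none of the 9 passed either. The *Rest* pKO values both exceeded those of the controls in 3 of the 9 (*Rcor2*, *Hdac1* and *Kdm1a*) and were both lower in 2 (*Rest* and *Rcor1*), where 21.5% and 21.2% of all genes did so. The groups were thus separate in 5 of the 9, beside 42.7% of all genes. In the other 4 the groups overlapped. The median log2 fold change of the 9 genes was −0.08, beside −0.0048 over all genes tested.

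**Figure D2:**
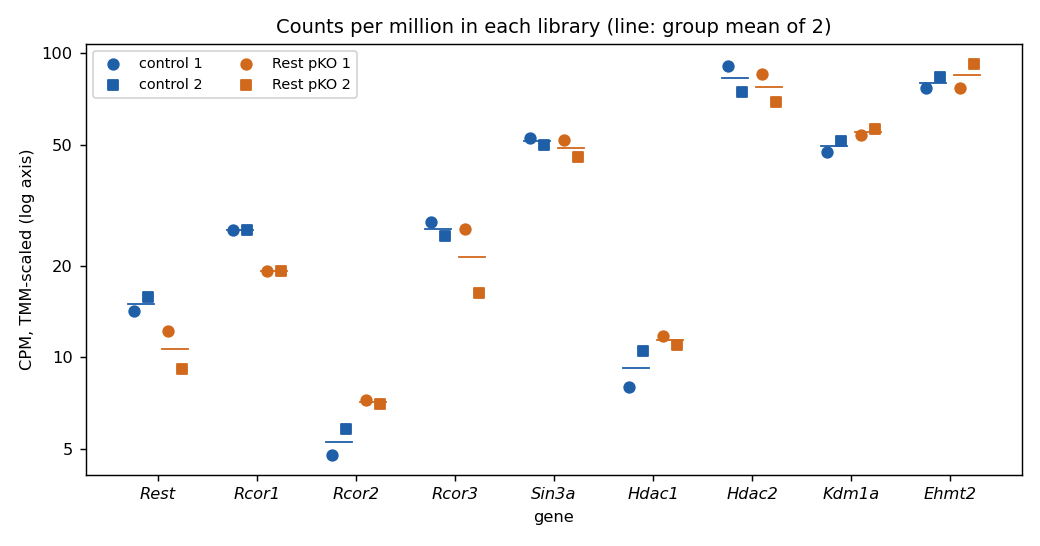
CPM on a log axis for each gene, 1 point per library, with a line at the mean of each group of 2. The *Rest* pKO points of *Rest* and *Rcor1* lie under the control points, and those of *Rcor2*, *Hdac1* and *Kdm1a* over them.

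The CoREST scaffolds lay on both sides of 0 in log2 fold change, none past the test. *Rcor1* (chr12:112277561-112354112, forward strand), the scaffold first known as CoREST, measured 26.1 and 26.2 CPM in the controls against 19.2 and 19.3 CPM in the *Rest* pKO pair. The groups did not overlap, and the replicates were closer than the counting error of a single value, 4.39% to 4.92%, so that their gap is no measure of the error. The fold was 0.734 with a 95% interval of 0.553 to 0.974 (log2 fold change −0.45, standard error 0.18, unadjusted p = 0.0361, edgeR adjusted p = 0.533). Leaving out any 1 library gave log2 fold changes of −0.45 to −0.44. With the length trend removed it was −0.37 (edgeR adjusted p = 0.681).

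*Rcor2* (chr19:7341815-7349715, forward strand), a CoREST scaffold known from stem cells and neural progenitors, lay above 0 on a low level. It was counted 80 and 115 times in the controls against 156 and 154 times in the *Rest* pKO pair, which is 4.76 and 5.80 CPM against 7.23 and 7.01 CPM. The groups did not overlap, and a single count carries a counting error of 8.01% to 11.2%. The fold was 1.35 with a 95% interval of 0.885 to 2.05 (log2 fold change 0.43, standard error 0.26, edgeR adjusted p = 0.650).

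*Rcor3* (chr1:193922652-193961892, reverse strand), the remaining paralogue, measured 27.7 and 25.02 CPM in the controls against 26.5 and 16.3 CPM in the *Rest* pKO pair. Only *Rest* pKO replicate 2 was low, and the groups overlapped. The log2 fold change of −0.30 (95% interval −0.90 to 0.29, edgeR adjusted p = 0.718) became 0.010 without *Rest* pKO replicate 2 and −0.69 without *Rest* pKO replicate 1.

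*Kdm1a* (chr4:136106455-136158638, reverse strand), the demethylase that CoREST activates on nucleosomes, measured 47.3 and 51.3 CPM in the controls against 53.7 and 56.3 CPM in the *Rest* pKO pair. The *Rest* pKO values were the higher, but the gap to the nearer control was less than the controls differed from each other. The fold was 1.12 with a 95% interval of 0.849 to 1.47 (log2 fold change 0.16, standard error 0.17, edgeR adjusted p = 0.767).

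*Sin3a* (chr9:56919847-56976173, forward strand), the scaffold that binds the amino-terminal repressor domain of REST, measured 52.4 and 49.98 CPM in the controls against 51.6 and 45.5 CPM in the *Rest* pKO pair. The groups overlapped, with a log2 fold change of −0.08 (95% interval −0.48 to 0.33, edgeR adjusted p = 0.888), which was 0.015 without *Rest* pKO replicate 2.

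The deacetylases shared by SIN3 and CoREST differed widely in level, and for neither was a difference between genotypes detected. *Hdac2* (chr10:36694350-36721695, forward strand) measured 90.9 and 74.2 CPM in the controls against 85.5 and 68.7 CPM in the *Rest* pKO pair, and within each group replicate 1 was the higher library. Its log2 fold change was −0.10 (95% interval −0.56 to 0.37, edgeR adjusted p = 0.878), and it was 0.053 without control replicate 1 and 0.056 without *Rest* pKO replicate 2. *Hdac1* (chr4:129193348-129219957, reverse strand) was counted 134 and 208 times in the controls against 254 and 240 times in the *Rest* pKO pair, or 7.98 and 10.5 CPM against 11.8 and 10.9 CPM. The *Rest* pKO libraries lay just above the controls, and the controls differed from each other by more than *Rest* pKO replicate 2 did from the higher control. The log2 fold change was 0.30 (95% interval −0.26 to 0.85, edgeR adjusted p = 0.706), and it ran from 0.11 without control replicate 1 to 0.51 without control replicate 2.

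The level of *Hdac1* has to be read with the copies of its sequence in mind. Of the 1939 windows of 100 bases in its longest coding transcript of 2038 bases, 1059 or 54.6% occur again, letter for letter, elsewhere in the mm9 genome, on 3 chromosomes. Since only uniquely mapped reads were counted, reads matching more than 1 place are not in the table, and the level of *Hdac1* set beside other genes is uncertain. The same share was 0.174% for *Rest* and 0 for the other 7 genes. A comparison of *Hdac1* between libraries uses the same windows in each.

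*Ehmt2* (chr17:35035414-35050997, forward strand), the methyltransferase G9a, measured 76.6 and 83.2 CPM in the controls against 76.6 and 92.3 CPM in the *Rest* pKO pair. *Rest* pKO replicate 1 equalled the lower control and *Rest* pKO replicate 2 was the highest library. The log2 fold change was 0.08 (95% interval −0.34 to 0.50, edgeR adjusted p = 0.890), and it was −0.057 without *Rest* pKO replicate 2.

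**Figure D3:**
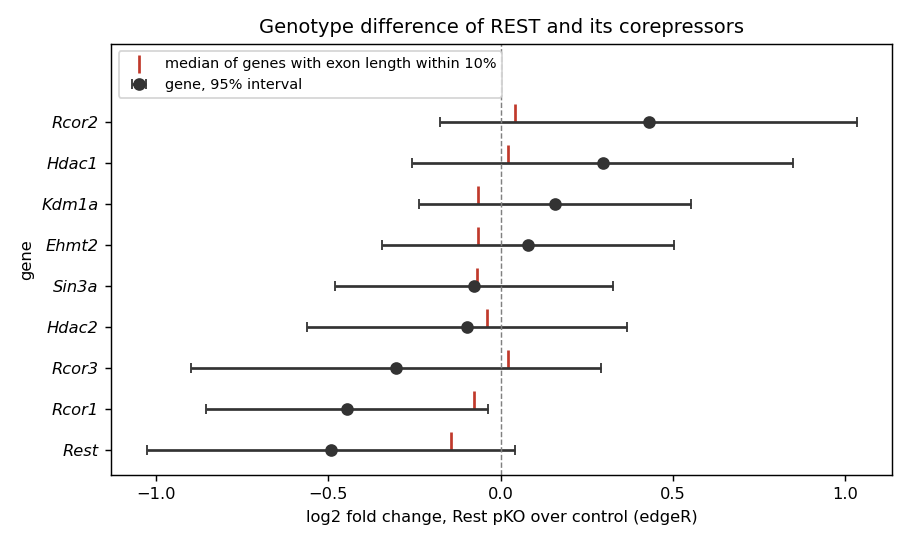
Log2 fold change of *Rest* pKO over control for each gene with its 95% interval from edgeR, and in red the median of all tested genes whose exon length is within 10%. Only the interval of *Rcor1* lies wholly on a single side of 0, from −0.86 to −0.04, and its adjusted p was 0.533.

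Levels were compared between genes per kb of exon, with lengths from an mm9 gene annotation that may differ from the gene models the reads were counted on. In the controls *Hdac2* stood highest at 18.4 ± 2.64 CPM per kb (SD, n = 2), followed by *Ehmt2* at 14.6 ± 0.851. *Kdm1a* at 9.52 ± 0.550 and *Sin3a* at 9.48 ± 0.323 CPM per kb could not be told apart within their spread. *Rcor3* at 7.40 ± 0.540 and *Rcor1* at 4.61 ± 0.0117 CPM per kb came next. *Hdac1* at 2.68 ± 0.516, *Rest* at 2.07 ± 0.147 and *Rcor2* at 1.68 ± 0.234 CPM per kb were the lowest. The transcription factor was thus counted per length at a level below 7 of its 8 cofactors in the controls. In *Rest* pKO *Rest* was the lowest of the 9, at 1.47 ± 0.292 CPM per kb, with *Rcor2* at 2.27 ± 0.0494. This value divides by all 7254 exon bases of *Rest*. Exon 4, with 81.8% of the bases of its transcript, is floxed in the epithelium. The *Rest* pKO level of *Rest* per kb may therefore not be on the scale of the other genes.

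Ratios to *Rest* within a library also carry the difference in *Rest* itself, and are given as a description only. They use the full exon length of *Rest* in *Rest* pKO too. For *Kdm1a* the ratio of counts per kb to those of *Rest* was 4.65 and 4.57 in the controls against 6.19 and 8.61 in the *Rest* pKO pair. For *Ehmt2* it was 7.12 and 6.99 in the controls against 8.33 and 13.3 in the *Rest* pKO pair. For *Rcor1*, which lay lower along with *Rest*, it was 2.34 and 2.13 in the controls against 2.01 and 2.69 in the *Rest* pKO pair, and the groups overlapped. These ratios do not depend on library scaling.

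Within the RCOR family *Rcor3* and *Rcor1* together made up most of the counts per kb in all 4 libraries. *Rcor2* held 10.9% and 13.7% of the family's counts per kb in the controls against 17.6% and 21.965% in the *Rest* pKO pair. Its mean share was 12.3% ± 1.98 and 19.8% ± 3.08 (SD, n = 2 each), a difference of 7.46 percentage points with an exact two-sided permutation p of 0.333, the smallest that 2 against 2 libraries can give. *Rcor1* held 33.1% and 34.2% in the controls against 25.7% and 33.3% in the *Rest* pKO pair, with overlap between the groups (exact permutation p = 0.667). *Rcor3* held 56.0% and 52.0% in the controls against 56.7% and 44.8% in the *Rest* pKO pair, and these overlapped as well (exact permutation p = 1). Among the deacetylases *Hdac1* held 10.2% and 15.5% of the counts per kb of the pair in the controls against 15.2% and 17.1% in the *Rest* pKO pair (exact permutation p = 0.667). The exon length of *Hdac1* was then reduced by the share of repeated windows in its longest coding transcript, with the counts unchanged. On this scale *Hdac1* held 20.1% and 28.8% in the controls against 28.3% and 31.3% in the *Rest* pKO pair.

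**Figure D4:**
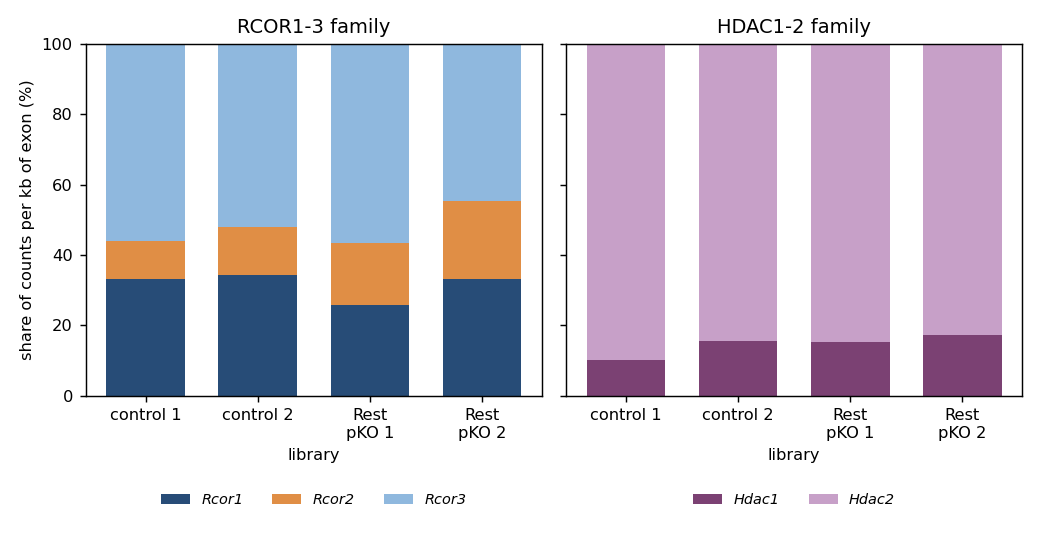
Share of the counts per kb of exon that each paralogue takes within its family, 1 bar per library, summing to 100%. *Rcor2* (orange) takes 10.9% and 13.7% in the controls against 17.6% and 21.965% in the *Rest* pKO pair, and *Hdac2* takes most of the deacetylase counts in every library.

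The genes whose pattern over the 4 libraries was closest to that of *Rest* were taken from 11051 genes with a mean of at least 5 CPM, by the root mean square distance of their log2 CPM centred on the gene mean. They were *Bub1*, a kinase of the mitotic checkpoint, at a distance of 0.0159, *Heca* at 0.0262, *Dennd4a*, an exchange factor for Rab GTPases, at 0.0265, *Cenpe*, a kinetochore motor, at 0.0274 and *Plcxd2* at 0.0297. *Bub1*, also among the proliferation markers above, measured 18.7 and 20.1 CPM in the controls against 15.6 and 11.9 CPM in the *Rest* pKO pair. Of the corepressor genes *Rcor1* was nearest to *Rest*, at 0.157, followed by *Rcor3* at 0.167, and *Rcor2* was farthest at 0.485. *Rcor2* and *Hdac1*, the cofactors with the fewest counts, were the closest pair among the 9 at 0.0767, and *Kdm1a* and *Ehmt2* the next at 0.0824. With 4 libraries such distances describe a shape and no more.

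Around these 9 genes, 7 lists of partner genes were drawn from textbook knowledge. They hold subunits of CoREST, SIN3, G9a, NuRD and MIER complexes, other cofactors, Polycomb repressive complex 2 and genes of REST turnover, import and splicing. All 85 genes were tested, 35 had a log2 fold change above 0 and 50 below, and their median was −0.06, beside 49.5% of all genes above 0. None was called by edgeR, DESeq2 or edgeR with sex as a term. At an unadjusted p under 0.05 none was higher and 2 were lower, among them *Gatad2b*, beside 3.26% and 5.61% of all genes. *Rest* pKO was the higher without overlap in 15 of the 85 and the lower in 26, beside 21.5% and 21.2% of all genes, and in the other 44 the groups overlapped. Values of these lists come from the fit that keeps the exon length trend (Spearman's rho −0.297 over all genes with a known length). The part of that trend in the list medians was not tested.

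Among 15 other REST cofactors 7 were above 0 and 8 below, with a median of −0.02. *Hdac3*, a histone deacetylase, measured 52.3 and 52.9 CPM in the controls against 63.0 and 69.1 CPM in the *Rest* pKO pair, which gives 0.33 on the log2 scale (standard error 0.17, edgeR adjusted p = 0.625). The groups did not overlap. *Smarcc1*, a core subunit of BAF chromatin remodelers, had a log2 fold change of −0.32 (edgeR adjusted p = 0.638).

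Of 10 partners in CoREST complexes, 5 were above 0 and 5 below, with a median of −0.01. *Zmym3*, a zinc finger subunit, measured 29.6 and 33.1 CPM in the controls against 37.6 and 39.3 CPM in the *Rest* pKO pair (log2 fold change 0.29, edgeR adjusted p = 0.650). Its paralogue *Zmym2* measured 61.0 and 52.1 CPM in the controls against 53.6 and 33.1 CPM in the *Rest* pKO pair (log2 fold change −0.38, edgeR adjusted p = 0.667). *Kdm1b*, the paralogue of *Kdm1a*, measured 28.8 and 31.1 CPM in the controls against 27.6 and 19.3 CPM in the *Rest* pKO pair (log2 fold change −0.35, edgeR adjusted p = 0.659). For both of the latter *Rest* pKO replicate 2 was the lowest library by a wide margin.

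Of 15 partners in SIN3 complexes, 10 were above 0 and 5 below, with a median of 0.07. *Sin3b*, the paralogue of *Sin3a*, measured 64.2 and 58.6 CPM in the controls against 56.6 and 72.5 CPM in the *Rest* pKO pair, a log2 fold change of 0.07 (edgeR adjusted p = 0.905). *Rbbp7*, a histone-binding subunit of many deacetylase complexes, measured 193 and 171 CPM in the controls against 160 and 131 CPM in the *Rest* pKO pair (log2 fold change −0.33, edgeR adjusted p = 0.645). *Arid4b*, a DNA-binding subunit, had a log2 fold change of −0.54 (edgeR adjusted p = 0.609). It measured 52.4 and 46.5 CPM in the controls against 42.9 and 24.96 CPM in the *Rest* pKO pair. Its log2 fold change was −0.98 without *Rest* pKO replicate 1, which leaves 1 library in that group. Without *Rest* pKO replicate 2 it was −0.20. *Ing2*, a reader of methylated histone H3, had a log2 fold change of 0.32 (edgeR adjusted p = 0.666).

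Of 12 genes that work with G9a or around histone H3 lysine 9 methylation, 3 were above 0 and 9 below, with a median of −0.16. *Ehmt1* (GLP), with which G9a forms its dimer, measured 47.4 and 51.3 CPM in the controls against 47.7 and 47.2 CPM in the *Rest* pKO pair (log2 fold change −0.06, 95% interval −0.45 to 0.34, edgeR adjusted p = 0.914). *Cbx5*, the heterochromatin protein HP1 alpha, measured 150.5 and 169 CPM in the controls against 136 and 105 CPM in the *Rest* pKO pair (log2 fold change −0.41, edgeR adjusted p = 0.610). Both groups of *Ehmt1* overlapped, and those of *Cbx5* did not.

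NuRD and MIER complexes also use HDAC1 and HDAC2. Of their 12 other subunits listed, 4 were above 0 and 8 below, with a median of −0.13. *Gatad2b*, a NuRD scaffold, measured 17.3 and 14.9 CPM in the controls against 9.69 and 10.7 CPM in the *Rest* pKO pair, with no overlap (log2 fold change −0.66, standard error 0.21, edgeR adjusted p = 0.464). *Mta1*, the subunit that binds HDAC1, measured 35.5 and 34.3 CPM in the controls against 26.9 and 28.7 CPM in the *Rest* pKO pair (log2 fold change −0.33, edgeR adjusted p = 0.637). *Mier3* had a log2 fold change of −0.54 (edgeR adjusted p = 0.644), which was −1.12 without *Rest* pKO replicate 1 and −0.12 without *Rest* pKO replicate 2.

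Of 9 genes of Polycomb repressive complex 2, which methylates histone H3 lysine 27, 3 were above 0 and 6 below, with a median of −0.15. *Ezh1*, the methyltransferase of resting cells, measured 23.3 and 26.4 CPM in the controls against 27.8 and 35.5 CPM in the *Rest* pKO pair (log2 fold change 0.35, edgeR adjusted p = 0.644). *Aebp2* and *Mtf2*, accessory subunits, lay at −0.35 and −0.41 on the log2 scale (edgeR adjusted p = 0.657 and 0.680). *Mtf2* measured 30.1 and 31.0 CPM in the controls against 30.0 and 15.9 CPM in the *Rest* pKO pair, so that *Rest* pKO replicate 2 alone stood apart. Its log2 fold change was −0.94 without *Rest* pKO replicate 1 and −0.024 without *Rest* pKO replicate 2.

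REST protein is known to be set by its own turnover and splicing. Of 12 genes with a part in these or in its import to the nucleus, 3 were above 0 and 9 below, with a median of −0.11. *Btrc*, the F-box protein that marks REST for degradation, measured 20.2 and 22.7 CPM in the controls against 24.6 and 24.5 CPM in the *Rest* pKO pair (log2 fold change 0.19, edgeR adjusted p = 0.740). *Usp7*, a deubiquitinase that stabilizes REST, measured 115 and 107 CPM in the controls against 99.4 and 90.2 CPM in the *Rest* pKO pair (log2 fold change −0.23, edgeR adjusted p = 0.690). *Huwe1*, a large ubiquitin ligase, measured 290 and 294 CPM in the controls against 238 and 233 CPM in the *Rest* pKO pair (log2 fold change −0.31, edgeR adjusted p = 0.642). *Htt*, huntingtin, which holds REST in the cytoplasm of neurons, had a log2 fold change of −0.27 (edgeR adjusted p = 0.666). *Srrm4*, the neural splicing factor that makes the truncated REST4 form, was between 1.11 and 1.71 CPM in the 4 libraries (log2 fold change −0.42, 95% interval −1.36 to 0.52, edgeR adjusted p = 0.742).

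**Figure D5:**
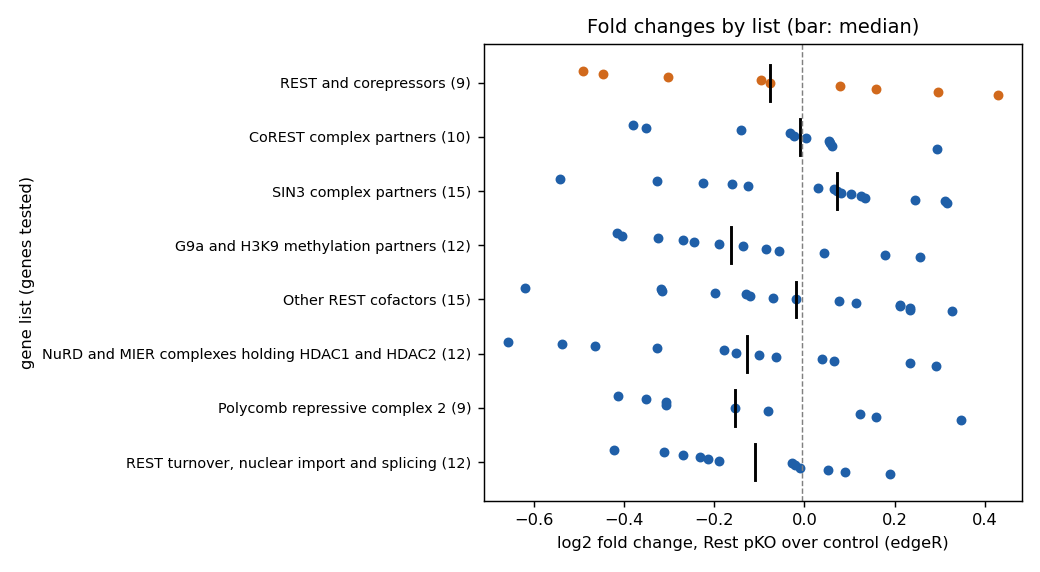
Log2 fold changes of *Rest* pKO over control for the 9 genes (orange) and for the partner genes of each list (blue), with list medians as black bars and the median of all genes tested as a dashed line. List medians lie between −0.16 and 0.07, and single genes between −0.66 and 0.43.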

How the data were processed

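RNA from E18.5 pancreas was sequenced by the authors as 100-bp paired-end reads and aligned to mm9 with STAR. Only uniquely mapped reads were kept, and they were counted over UCSC mm9 genes with featureCounts 1.5. The deposited values are these whole-number counts per gene, not normalized by the authors. Strand and pair settings are not given in the sources used here. The study's methods state 3 pancreas for each genotype, and 2 libraries of each were analysed. Counts summed to 16936759 to 24134100 per library, and acinar genes were the most abundant of the marker lists (189170 to 285590 CPM).

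Genes were tested with edgeR 4.0.16 in R 4.3.3 (filterByExpr, TMM, glmQLFit, glmQLFTest), on a model with genotype alone, and p-values were adjusted over 14550 genes by the Benjamini-Hochberg method. The study used DESeq2, here version 1.42.0 as an alternative, as was voom of limma 3.58.1. The standard error is the log2 fold change divided by the square root of F. The libraries of a group differ in sex and so come from different embryos. Replicates differed by more than sampling noise (chi-square per degree of freedom 23.2 in controls and 64.9 in *Rest* pKO). Positions and union exon lengths are from GENCODE M1 on mm9. The 9 genes and the lists were chosen with earlier results of these data known. Named partners are the 3 of each list with the smallest p and any past the threshold, with *Ehmt1*, *Sin3b*, *Kdm1b*, *Hdac3*, *Srrm4* and *Btrc*. Of these, *Zfp644* and *Cdyl* are only given in the closing section, and 1 gene is not reported here. The code was tested on simulated data.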

Additional observations from a re-analysis of the deposited data

How the results depend on the processing

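None of the 9 genes passed under any alternative run. Under the 8 alternatives planned beside leaving out a library, each kept its direction, with log2 fold changes of −0.51 to −0.48 for *Rest*, −0.45 to −0.44 for *Rcor1* and 0.43 to 0.44 for *Rcor2*. With the exon length trend removed, added after seeing the data, these were −0.36, −0.37 and 0.39, and no gene changed direction. Leaving out each library in turn gave −0.71 to −0.30 for *Rest*, −0.45 to −0.44 for *Rcor1*, 0.29 to 0.58 for *Rcor2*, −0.69 to 0.010 for *Rcor3*, −0.17 to 0.015 for *Sin3a*, 0.11 to 0.51 for *Hdac1*, −0.26 to 0.056 for *Hdac2*, 0.10 to 0.22 for *Kdm1a* and −0.057 to 0.21 for *Ehmt2*. The changes of sign came without *Rest* pKO replicate 2, and for *Hdac2* also without control replicate 1. The difference in share lay between −9.25 and 2.66 percentage points for *Rcor3*, and between 5.28 and 9.64 for *Rcor2*. Among the named partners, the ranges that crossed 0 were −0.79 to 0.032 for *Zfp644* and −0.11 to 0.24 for *Sin3b*, both crossing without *Rest* pKO replicate 2, and −0.12 to 0.000861 for *Ehmt1*, crossing without control replicate 2, while *Cdyl* (−0.25) kept its direction. The cause of these changes was not tested.

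Over all genes, edgeR called 0 higher and 4 lower, DESeq2 26 and 76, and edgeR with sex as a term 60 and 187. With each library left out in turn the counts ran from 1 to 59 higher and from 0 to 455 lower, with the fewest without *Rest* pKO replicate 2. A group left with 1 library is assumed to vary like the other. The deviations of control and *Rest* pKO libraries of the same number from their group means had a correlation of 0.0478 across genes. Libraries of the same number also differ in sex, so this value cannot decide whether the numbers pair the samples. With the replicate block edgeR called 0 higher and 4 lower and none of the 9 genes. *Rcor2*, at 80 to 156 counts a library, carries the largest counting error of the 9.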
